A study of Mus musculus with 6 samples.

Results

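The OAS family comprises 8 genes here, Oas1a, Oas1b, Oas1c, Oas1g, Oas2, Oas3, Oasl1 and Oasl2, taken by gene name from the 24062 rows of a table of raw RNA-seq counts. They were chosen by family name and by the TKO and DKO counts themselves, which were already known, so their values in that comparison are described without a test. Poly(A) RNA was sequenced from P21 (postnatal day 21) retinae of mice labelled C57BL/6 (a C57BL/6N background in the study's methods), 3 with the genotype Chx10-Cre Rb1/p107 (DKO) and 3 with Chx10-Cre Rb1/p107/Hells (TKO). Both genotypes carried the Chx10-Cre transgene, which recombines floxed alleles in retinal progenitors, a floxed Rb1 and a germline null p107. TKO mice carried floxed Hells as well. The study describes expression of this Cre as mosaic, so a whole retina also holds cells without recombination. Mice of both sexes were used in the study, the libraries were made from whole retina rather than from sorted cells, and no Cre-negative retina was among the 6 libraries, so every level below is one genotype against the other. Each library held between 10343907 and 14203098 counts, all 3 pairs of retinae within each genotype differed beyond counting error, and nothing in the labels says whether the retinae of a genotype came from separate mice. Hells, the deleted chromatin remodeler, stood at 70.9 ± 11.5 normalized counts in TKO against 532 ± 142 in DKO (mean ± SD, n = 3 each). Its log2 fold change was -2.91 ± 0.22 (SE, adjusted p = 0.00359, edgeR quasi-likelihood test), and residual Hells counts were present in every TKO library.

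Oligoadenylate synthetases are interferon-stimulated enzymes that bind double-stranded RNA and join ATP into short oligoadenylates called 2-5A. 2-5A is a second messenger that sets off the breakdown of single-stranded RNA of virus and host. The family is best known from antiviral defence, it is expressed at low level in most resting cells, and microglia are among the cells of nervous tissue that respond strongly to interferon. Mice carry several Oas1 copies, of which Oas1a and Oas1g are regarded as enzymatically active, together with the larger synthetases Oas2 and Oas3 and the OAS-like genes Oasl1 and Oasl2, whose proteins end in ubiquitin-like domains.

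All 8 genes lie on chromosome 5 (GRCm38, GENCODE M21) in a pair of clusters. Oas2, Oas3 and the Oas1 copies occupy 191.3 kb at chr5:120730333-120921652, a stretch of 10 OAS genes. Oasl2 and Oasl1 sit side by side in 41.0 kb at chr5:114896936-114937915. Oas1b, a flavivirus resistance gene that carries a truncating allele in common laboratory strains, is annotated as a polymorphic pseudogene and the other 7 as protein coding.

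The clearest sequence feature that the choice of genes did not use lies just before their start sites. RefSeq promoter windows (GRCm38.p6, 250 bases before to 50 after the start) matched 6 of the 8 genes by symbol, Oas1a, Oas1c, Oas1g, Oas3, Oasl1 and Oasl2. The stretches below, each 100 bases upstream of the start and written 5′ to 3′ along the gene's own strand, are shown because they carry the core of the interferon-stimulated response element, GAAANNGAA read on either strand. Capitals mark every base covered by a match, so that overlapping matches form 1 block.
Oas1a (chr5:120907526-120907625, minus strand): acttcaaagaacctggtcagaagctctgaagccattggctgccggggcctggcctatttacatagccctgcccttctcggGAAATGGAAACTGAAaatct
Oas1g (chr5:120887614-120887713, minus strand): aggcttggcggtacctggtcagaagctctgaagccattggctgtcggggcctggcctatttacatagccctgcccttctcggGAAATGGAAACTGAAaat
Oas3 (chr5:120777678-120777777, minus strand): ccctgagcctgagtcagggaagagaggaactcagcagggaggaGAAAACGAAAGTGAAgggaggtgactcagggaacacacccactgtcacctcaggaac
Oas1c (chr5:120812571-120812670, minus strand): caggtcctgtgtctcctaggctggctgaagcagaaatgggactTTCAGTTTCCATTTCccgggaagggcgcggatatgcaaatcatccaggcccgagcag
Each block is a pair of overlapping cores set 6 bases apart. In Oas1a the pair begins 20 bases before the annotated start, in Oas1g 18, in Oas3 75 and in Oas1c 113 bases before it, where the matches are on the opposite strand and appear as their reverse complement. The core was found in 4 of 6 members (66.7%) against 9.76% of the promoters of 27025 genes, and those 4 include the near copies Oas1a and Oas1g. Within these windows Oasl1 and Oasl2 held no match. TTCNNNGAA, the letters of the gamma-activated site, was in 1 of 6 members, Oas1a, against 9.55% of all promoters.

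The block before Oas1c also lies before a neighbouring gene. Oas1c and Oas1b are transcribed away from each other from starts 121 bases apart, and the 15-base block at chr5:120812613-120812627 begins 22 bases before the Oas1b start of GENCODE M21. The Oas1g stretch matched the Oas1a window at 93 of 100 positions, and the pair share more than their promoters. Of the 100-base stretches in Oas1a transcripts, 40.9% also occur in Oas1g, and 31.2% of those of Oas1g occur in Oas1a, so reads from either gene could be assigned to the other. None of the other 6 members shared a stretch of that length with another annotated OAS gene.

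All 8 genes were lower in TKO than in DKO retinae, with no overlap between the 3 TKO and the 3 DKO values of any gene. Of all 16904 genes tested, 3483 (20.6%) showed the same separation. By the study's criteria (adjusted p at most 0.05, a log2 fold change of at least 1 in size, a mean normalized count of at least 10), 5 of the 8, Oas1a, Oas1b, Oas2, Oasl1 and Oasl2, were called lower, beside 741 of all genes tested (4.38%). The choice of members used this comparison, so nothing is read from either count. The median log2 fold change of the 8 was -2.16, with a range of -3.10 to -0.78, and the median of all genes tested was -0.011.

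**Figure D1:**
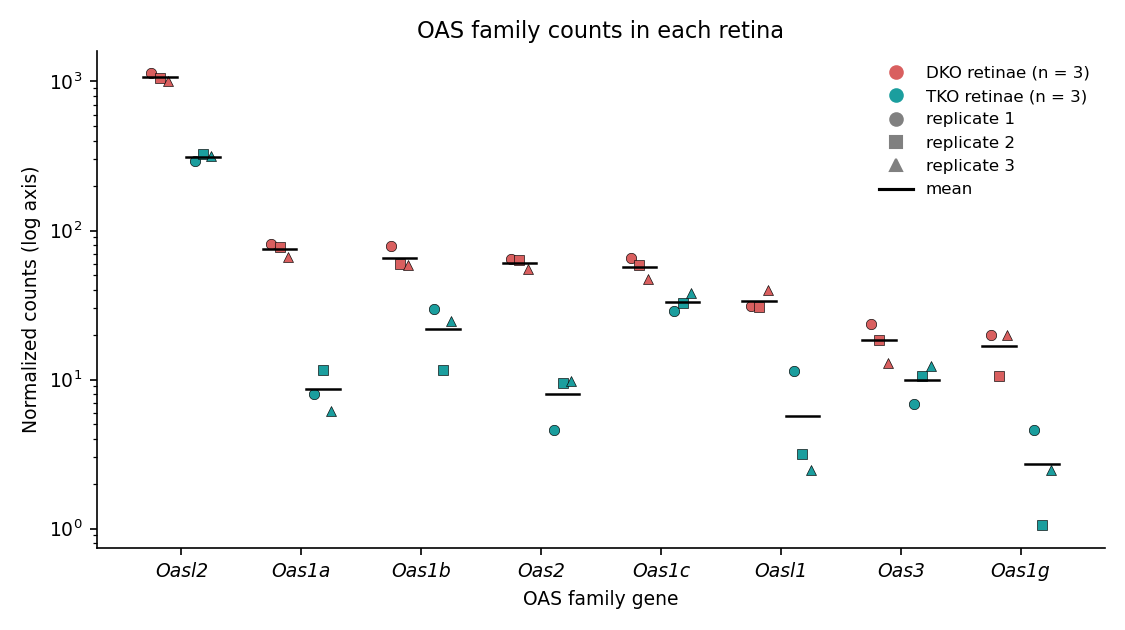
Normalized counts of each OAS family gene (log axis) in the 3 DKO and 3 TKO retinae, one point per library with the replicate number as its shape and a bar at the mean, genes ordered by their DKO mean. Oasl2 stands above every other member in both genotypes, and the gap between genotypes is wide for Oas1a and Oas2 and narrow for Oas1c and Oas3.

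Among the Oas1 copies, Oas1a had the largest difference. Its normalized counts were 8.03, 11.6 and 6.14 in the TKO retinae (replicates 1 to 3) and 80.9, 77.9 and 66.5 in the DKO retinae. The log2 fold change was -3.10 ± 0.29 (SE, n = 3 each), and pooled counts were 8.59-fold higher in DKO, with an exact binomial 95% interval of 5.60 to 13.8 that covers counting error only, as do the intervals below. Every DKO library thus stood far above the highest TKO library.

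Oas1g, the active copy nearest to Oas1a in sequence, was much scarcer. Raw counts were 4, 1 and 2 for the TKO retinae and 21, 12 and 23 for the DKO retinae, or 2.70 ± 1.78 against 16.7 ± 5.37 normalized counts (mean ± SD). Its log2 fold change was -2.59 ± 0.56, and the pooled difference of 6.27-fold has a wide interval (2.85 to 16.3). It missed the call because its mean count of 9.57 (DESeq2 size factors) is below 10. With Oas1a and Oas1g summed into 1 feature, so that the assignment of shared reads does not matter, the log2 fold change was -3.0 ± 0.25.

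Oas1b and Oas1c share a start region, as described above. Oas1b stood at 29.8, 11.6 and 24.5 normalized counts in TKO and 79.1, 59.5 and 58.7 in DKO, a log2 fold change of -1.58 ± 0.34. Oas1c, a copy thought to lack synthetase activity, stood at 28.7, 32.6 and 38.0 in TKO and 64.9, 58.7 and 47.5 in DKO, a log2 fold change of -0.78 ± 0.24. Oas1c had the smallest difference of the 8 genes. The intervals of its pooled fold of 1.72 (1.33 to 2.24) and that of Oas1b at 3.03 (2.25 to 4.12) barely cleared each other. They leave out variation between retinae, so a difference in fold between Oas1b and Oas1c is not shown. The count of Oas1b per count of Oas1c ranged from 0.355 to 1.04 in TKO and from 1.01 to 1.24 in DKO, so those ranges overlapped at their edges.

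Described without a test, the share of Oas1a among Oas1 counts was lower in each TKO than in each DKO library. Oas1a had only 7, 11 and 5 counts in TKO replicates 1 to 3, and reads shared with Oas1g could shift its share. Oas1a made up 9.46%, 16.2% and 5.95% of the counts on all 8 Oas1 copies in the TKO retinae (replicates 1 to 3), from 68 to 84 counts per library. In the DKO retinae it made up 29.1%, 31.3% and 30.1%, from 256 to 296 counts. The highest TKO share had a Wilson 95% interval of 9.28 to 26.7% and the lowest DKO share one of 24.2 to 34.5%, so these neighbouring libraries overlapped in counting error. Oas1a counts per Oas1c count ran from 0.161 to 0.355 in TKO and from 1.25 to 1.40 in DKO.

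The remaining Oas1 copies gave little. Oas1e, 9.3 kb long and next to Oas1c, gave TKO counts of 11, 14 and 26 and DKO counts of 36, 48 and 31. Its log2 fold change was -0.80 ± 0.40 (adjusted p = 0.195, edgeR), and -1.31 (adjusted p = 0.0377) without TKO replicate 3. The normalized values of its groups overlapped, between TKO replicate 3 at 31.9 and DKO replicate 3 at 26.8. Oas1d, known from the oocyte, had 1 count in a TKO and 1 in a DKO library. Oas1f had 1 count in a single DKO library, and Oas1h was at 0 in all 6. Summing all 8 Oas1 copies gave a log2 fold change of -1.53 ± 0.17.

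Of the larger synthetases, Oas2 differed far more than Oas3. Oas2 stood at 4.59, 9.47 and 9.82 normalized counts in TKO and 64.0, 63.0 and 55.3 in DKO. Its log2 fold change was -2.91 ± 0.32, and the pooled fold was 7.62 (4.85 to 12.6). Oas3, the synthetase that senses long double-stranded RNA, stood at 6.88, 10.5 and 12.3 in TKO and 23.5, 18.4 and 13.0 in DKO, a log2 fold change of -0.88 ± 0.39. The highest TKO and the lowest DKO library of Oas3 nearly touched, and its pooled fold of 1.84 (1.14 to 3.03) lay wholly below the interval of Oas2, although both genes lie side by side.

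Oasl2, an OAS-like gene with synthetase activity in mice, was by far the most abundant member. It stood at 292, 324 and 315 normalized counts in TKO and 1134, 1053 and 1015 in DKO. The log2 fold change was -1.78 ± 0.087, the most precise of the family, and the pooled fold was 3.43 (3.18 to 3.70). Its coefficient of variation was 5.28% among TKO and 5.68% among DKO retinae, so its level was nearly alike in the libraries of a genotype. Oasl2 took 75.7 to 80.2% of all member counts in TKO and 75.7 to 77.2% in DKO, a share that did not separate the genotypes. The sum over the other 7 members was 94.0, 80.0 and 95.7 normalized counts in TKO and 363, 319 and 300.5 in DKO.

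Oasl1, an OAS-like gene without synthetase activity that restrains translation of Irf7 in mice, varied most among TKO retinae. It stood at 11.5, 3.16 and 2.45 normalized counts in TKO and 31.1, 30.6 and 39.7 in DKO. TKO replicate 1 was well above the other TKO libraries, and all DKO libraries were above it. The log2 fold change of -2.55 ± 0.50 became -3.52 without that library.

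Compared per length, as CPM (TMM-scaled) per kb of exon, the order of the family was not the same in both genotypes. In DKO the mean levels fell from Oasl2 (13.2) through Oas1a (3.15), Oas1b (2.61), Oas1c (1.87), Oas2 (1.08), Oasl1 (1.03) and Oas1g (0.565) to Oas3 (0.205). The ranges of Oas1a and Oas1b overlapped, as did those of Oas2 and Oasl1, and all other neighbours in that order were apart. In TKO the order was Oasl2 (3.85), Oas1c (1.09), Oas1b (0.872), Oas1a (0.360), Oasl1 (0.173), Oas2 (0.141), Oas3 (0.111) and Oas1g (0.0911), where the ranges of all neighbours after Oasl2 overlapped. Oas1c was thus the fourth member in DKO and the second in TKO, level with Oas1b within the spread.

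Genes that handle 2-5A were tested, and the 3 described here did not pass the test. Abce1, a ribosome recycling factor, had a log2 fold change of -0.17 ± 0.083 (adjusted p = 0.196), and passed when libraries were scaled by total counts alone (-0.33, adjusted p = 0.0482). Pde12, a phosphodiesterase that degrades 2-5A, had one of -0.17 ± 0.13 (adjusted p = 0.375). Akap7, whose protein can cleave 2-5A, had one of 0.039 ± 0.096 (adjusted p = 0.810).

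Upstream of the family, the interferon ligands were at or near the limit of detection. Of 11 ligand genes, 8 had no count in any library and none could be tested. Ifnb1 had 1 count in DKO replicate 2, Ifng 1 count each in DKO replicates 1 and 3, and Ifnz 2 counts in DKO replicate 3. All 11 were at 0 in the TKO libraries, where a count of 0 allows up to 3 counts per library, so no difference was detectable at this depth. Of the 9 receptor and kinase genes none was called (median log2 fold change -0.14). Jak1, a kinase shared by the interferon receptors, had a log2 fold change of 0.095 ± 0.072 (adjusted p = 0.397), which turned to -0.062 when libraries were scaled by total counts alone. Jak2, the partner kinase of the type II receptor, had one of 0.11 ± 0.083 (adjusted p = 0.371) and also changed sign, to -0.044, under that scaling. Ifnar1, a chain of the type I receptor, had one of -0.14 ± 0.068 (adjusted p = 0.192), and passed the test under that scaling (-0.30, adjusted p = 0.0348). Ifnar2, the other chain and named after its values were seen, stood at 122, 159 and 184 normalized counts in TKO and 229, 232 and 303 in DKO. Its log2 fold change of -0.72 ± 0.19 passed the test (adjusted p = 0.0355) but not the minimum fold, and it no longer passed when any 1 library other than TKO replicate 3 was left out (adjusted p 0.0731 to 0.105).

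Of the 9 transcription factors, 4 were called lower and none higher, against 4.38% and 1.97% of all genes (list median -0.77). All pathway lists, here and below, were chosen with earlier results of these data known. Nothing is therefore read from their counts of calls beside those shares. Irf7, the factor that amplifies type I interferon and is itself induced by it, stood at 156, 132 and 113 normalized counts in TKO and 360, 312 and 287 in DKO. Its log2 fold change was -1.26 ± 0.16 (adjusted p = 0.00621). Irf1 (-1.08, adjusted p = 0.0181), Irf5 (-1.08, adjusted p = 0.0217) and Irf8 (-1.06, adjusted p = 0.0405) were the other calls, and Irf5 and Irf8 are expressed chiefly by myeloid cells such as microglia. Irf8 lost its call when any 1 library other than TKO replicate 3 was left out (adjusted p 0.0831 to 0.122), Irf5 without TKO replicate 1 (0.0695), TKO replicate 2 (0.0875), DKO replicate 1 (0.0548) or DKO replicate 2 (0.0945), and Irf1 without TKO replicate 2 (0.0648) or DKO replicate 1 (0.0582). Irf1 also fell short of the minimum fold without TKO replicate 1 (-0.88) or DKO replicate 3 (-0.90). Stat2 and Irf9 encode partners in the complex that binds the response element, and they differed in value. Stat2 had a log2 fold change of -0.082 ± 0.11 (adjusted p = 0.628), and Irf9, named after its values were seen, one of -0.77 ± 0.099 (adjusted p = 0.00677). Irf3, a constitutive factor activated by RNA sensing, was higher in TKO by 0.42 ± 0.10 (adjusted p = 0.0305), short of a call and past the threshold in neither the fit scaled by total counts (adjusted p = 0.106) nor those without TKO replicate 1, TKO replicate 2, DKO replicate 1 or DKO replicate 2 (0.0813 to 0.101).

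Of the 9 sensors of double-stranded RNA, the ligand that OAS proteins also bind, 5 were called lower, against 4.38% of all genes (list median -1.13). Zbp1 had the largest fold, from 41.9 ± 2.03 normalized counts in DKO to 9.79 ± 2.15 in TKO (log2 fold change -2.08 ± 0.29, adjusted p = 0.00698). Eif2ak2, encoding the kinase PKR that halts translation, fell by 1.69 (adjusted p = 0.00464). The helicase sensors Ifih1 (-1.41), Dhx58 (-1.18) and Ddx58 (-1.13) were the other calls, with adjusted p of 0.00733, 0.00707 and 0.00480. Adar, which edits double-stranded RNA, had a log2 fold change of -0.048 ± 0.070 (adjusted p = 0.670), and Mavs, the adaptor below the helicases, of 0.25 ± 0.15 (adjusted p = 0.297). Mavs passed the threshold without TKO replicate 3 (0.40, adjusted p = 0.0469).

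Of the 4 feedback genes 2 were called lower, against 4.38% of all genes. These were Isg15 (-2.47 ± 0.21, adjusted p = 0.00378) and Usp18 (-1.95 ± 0.30, adjusted p = 0.00780), which encode a ubiquitin-like modifier and the protease that removes it. Socs3, a suppressor of cytokine signalling, did not pass (-1.54 ± 0.59, adjusted p = 0.112), with 1137 counts in DKO replicate 3 against 208 and 290 in the other DKO libraries. Without that library its log2 fold change was -0.46. Of 12 other interferon-stimulated genes 10 were called lower and none higher, against 4.38% and 1.97% of all genes (list median -1.70). This list too was chosen with earlier results known, so nothing is read from that count. Parp14 fell by 1.37 (adjusted p = 0.00513). Ifit2 (-0.86, adjusted p = 0.0134) and Ifit3 (-0.86, adjusted p = 0.00879) passed the test but not the minimum fold, and Ifit2 passed it no longer without TKO replicate 2, DKO replicate 1 or DKO replicate 2 (adjusted p 0.0559 to 0.0641), while it reached the fold for a call without TKO replicate 3 (-1.02).

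Over the 6 libraries, the genes whose profile was most like the mean profile of the family were Trim30d, Ifit1, Bst2, Gbp3, Eif2ak2, Gbp6, Isg15 and Kcne1l. Likeness was the root mean square difference of centred log2 normalized counts over the 6 libraries, among 12902 genes with a mean of at least 50 normalized counts. It ranged from 0.0849 for Trim30d to 0.269 for Kcne1l. The members themselves ranged from 0.189 for Oasl2 and 0.384 for Oas1b to 0.689 for Oasl1 and 0.693 for Oas3. These ranges cannot be compared, since the 8 genes were picked for closeness and had to reach a mean of 50 normalized counts. Among members only Oasl2 (689) reached that mean, with Oas1c next at 45.1, so counting error weighed more on the other members. Trim30d stood at 22.9, 20.0 and 20.9 normalized counts in TKO and 91.3, 91.9 and 80.3 in DKO, with little spread within each genotype. Of the 7 of these genes that had a promoter window, 6 held the GAAANNGAA core (85.7%), against 9.76% of the promoters of 27025 genes. They were picked for following a family of interferon-stimulated genes in these data, so nothing is read from that share. Between 2 and 6 of the 8 stayed in the list when 1 library was left out, and only 2 did without TKO replicate 3.

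Markers of some other cells were lower in TKO like the family and those of others were higher, and their part in its difference was not tested. In whole retina, fewer cells of a type and less RNA per cell cannot be told apart. The marker lists were also chosen with earlier results known, so nothing is read from their counts of calls. Of 12 microglia markers 6 were called lower and none higher, against 4.38% and 1.97% of all genes, and none was at 0. Their summed level was 1868 to 3307 normalized counts in TKO and 3792 to 5832 in DKO. The 8 markers of dividing cells were all called lower, with sums of 508 to 2041 in TKO and 5018 to 10825 in DKO, and the 6 rod markers were all called higher, with sums of 311236 to 640344 against 106043 to 202541. Of 11 leucocyte markers 5 had enough counts to be tested, 1 of them (Cd4) was called lower, Cd3e was at 0 in every library, and the sums were 30.5 to 43.6 against 65.9 to 88.1. Endothelial markers and markers of inner retinal neurons gave no call, Müller glia gave 1 lower and 1 higher of 6, cones gave 2 higher of 4, lens 2 higher of 5 and pigment epithelium 1 higher of 4. The lens sum was 2322 in TKO replicate 2, 353 and 424 in the other TKO libraries and 56.9 to 74.3 in DKO.

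**Figure D2:**
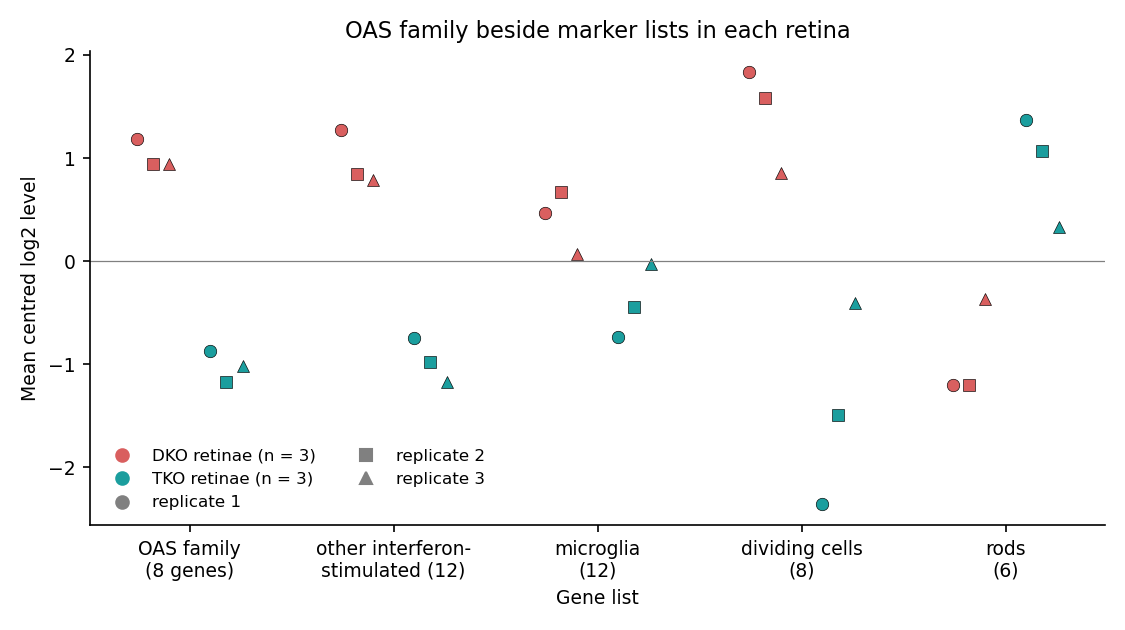
Mean centred log2 level of 5 gene lists in each retina, one point per library with the replicate number as its shape, where 0 is the mean of a gene over the 6 libraries. The OAS family sits between -1.17 and -0.88 in TKO and between 0.94 and 1.19 in DKO, while the TKO libraries spread from -2.36 to -0.41 for dividing cells and from -0.74 to -0.03 for microglia.

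The libraries of a genotype were closer together in the OAS family than in the microglia, dividing-cell and rod lists. They were closer still in the list of double-stranded RNA sensors (-0.49 to -0.42 in TKO and 0.39 to 0.57 in DKO). The same held for Müller glia (-0.05 to 0.10 in TKO and -0.15 to 0.04 in DKO) and inner retinal neurons (-0.11 to 0.08 and 0.01 to 0.07), so closeness was not particular to the family. The family level, the mean over the 8 genes of centred log2 counts, was -0.88, -1.17 and -1.02 in TKO replicates 1 to 3 and 1.19, 0.94 and 0.94 in DKO replicates 1 to 3. Microglia markers stood at -0.74, -0.45 and -0.03 in TKO and at 0.46, 0.67 and 0.07 in DKO, so that TKO replicate 3 and DKO replicate 3 nearly met. Dividing-cell markers stood at -2.36, -1.50 and -0.41 in TKO and at 1.83, 1.58 and 0.85 in DKO. Leaving out TKO replicate 3 and DKO replicate 3 together, a choice made after seeing these values, kept the same 5 members called. The members were chosen on this comparison, so nothing is read from that count, and the part of other cells was not tested.

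No gene within 250 kb of the clusters was called. Of all genes tested 4.38% were called lower and 1.97% higher, so nothing is read from this for so few neighbours. Within 250 kb of the Oas1, Oas2 and Oas3 cluster 9 other genes were tested (median log2 fold change 0.042, range -0.51 to 0.79). Dtx1, a Notch pathway gene with its start 18.4 kb before the cluster, had a log2 fold change of -0.51 ± 0.15 (adjusted p = 0.0468). Rph3a, a synaptic vesicle gene starting 88.4 kb after it, had one of 0.0057 ± 0.089 (adjusted p = 0.971). Around Oasl1 and Oasl2 14 genes were tested (median -0.19, range -0.88 to 0.61). The nearest were 4930519G04Rik, 43.3 kb before (0.61 ± 0.47, adjusted p = 0.406), and 2210016L21Rik, 4.2 kb after (0.087 ± 0.098, adjusted p = 0.575). Within 500 kb 1 gene was called, Trafd1, which was higher in TKO (1.01 ± 0.16, adjusted p = 0.00839).

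**Figure D3:**
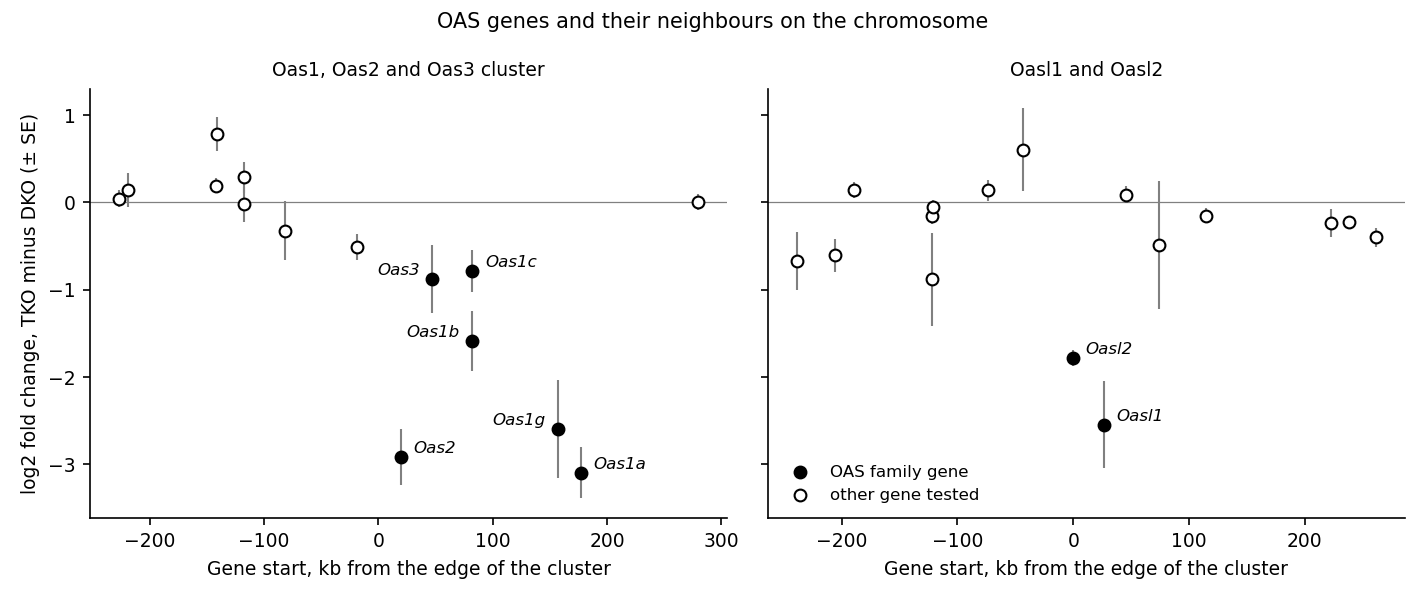
Log2 fold change (TKO minus DKO, bars ± SE) against the position of the gene's start, in kb from the left edge of each OAS cluster, for OAS family genes (filled) and the other genes tested within 250 kb (open). The open points lie between -0.88 and 0.79, and 6 of the 8 filled points lie below -1.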

How the data were processed

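Whole-retina RNA libraries (TruSeq Stranded mRNA, paired reads of 100 bases) from 3 TKO and 3 DKO retinae were analysed from 1 table of raw gene counts as deposited by the authors. The study's methods give STAR alignment to GRCm38 (Ensembl annotation, several alignments per read allowed) and HTSeq counting, while the submitters' processing notes name TopHat2, featureCounts and DESeq2, so the tool that made the counts and its strand setting are uncertain. The handling of reads shared by Oas1a and Oas1g, and of the overlaps of Oas1c with Gm43069 (227 bp) and of Oasl1 with Gm13822 (38 bp), depends on it.

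Genes with a count sum under 10 were removed, leaving 16904 of 24062. Counts were fitted with edgeR 4.0.16 (R 4.3.3, quasi-likelihood test, TMM, Benjamini-Hochberg over all genes tested), and SE is the fold change over the square root of F. Normalized counts are counts over TMM-scaled library size times the mean of those sizes, and centred levels add 0.5 before the log2. Depth was 10343907 to 14203098 counts per library, so members with under 10 counts in a library carry large counting error, and intervals cover counting error only. On data simulated from the mean levels and depths of these libraries, 200 of 200 changed genes were called and 9 unchanged ones. That simulation gave every gene the same dispersion, changed only well-counted genes by large folds and set no minimum fold. It checks the procedure and does not measure how often low-count members would be called. Positions came from GENCODE M21, where 16088 of 16904 symbols matched (95.2%).

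The members and all gene lists were chosen with earlier results of these data known. The rule for names took every member, the Oas1 copies and 2-5A genes with counts, the 3 genes of largest mean in each other pathway list, every called transcription factor and sensor, the 8 genes most like the family, the nearest neighbour on each side and every called neighbour, and Hells, and some genes it takes are not reported here. Alternatives were DESeq2 1.42.0, other scalings and filters, no minimum fold, a replicate block, each library left out, summed Oas1 copies, other windows and motif forms, and, after seeing the data, Oas1a and Oas1g summed and both replicates numbered 3 left out.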

Additional observations from a re-analysis of the deposited data

How the results depend on the processing

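The log2 fold change of each of the 8 members stayed below 0 in all 14 fits, with the widest ranges for Oasl1 (-3.52 without TKO replicate 1 to -2.07 without both replicates numbered 3) and Oas1g (-3.20 without TKO replicate 1 to -2.19 without TKO replicate 2). Without TKO replicate 2, DKO replicate 1 or DKO replicate 2 the members called were 3 (Oas1a, Oas2 and Oasl2), and without TKO replicate 1 or TKO replicate 3 they were 6, with Oas1g added; DESeq2, both other scalings, both other filters and the fit without a minimum fold called the same 5. Leaving out 1 library moved the genes called from 1074 to between 471 and 1500, those called higher from 333 to between 121 and 476, those called lower from 741 to between 312 and 1024, and the genes kept in the likeness list to between 2 and 6. Without both replicates numbered 3, 1873 genes were called, 663 higher and 1210 lower. With no minimum fold 2721 were called, 1225 higher and 1496 lower, and 1 pathway gene, Irf3, was then called higher. The window of 500 kb held 1 called neighbour. Deviations of same-numbered retinae from their genotype means were weakly correlated (r = 0.147, -0.100 and -0.135). TKO replicate 1 and DKO replicate 1 were nearest each other, and not every library was nearest its own number. With 3 libraries per genotype these values cannot exclude a pairing. With the replicate block 90 genes were called, 15 higher and 75 lower, with 3 members (Oas1a, Oas2 and Oasl2) and 8 pathway genes. Scaling by total counts alone shifted the median of all genes from -0.011 to -0.17, and turned the sign of Akap7 (-0.12), Jak1 (-0.062), Jak2 (-0.044), Tyk2 (-0.13) and Irf2 (-0.022). With 1 library left out Akap7 ranged from -0.050 (without TKO replicate 1) to 0.088 and Tyk2 from -0.056 (without TKO replicate 3) to 0.17, turning also without TKO replicate 1, DKO replicate 2 or both replicates numbered 3 (-0.062). Scaling by total counts also brought Ifit2 (-1.01) and Ifit3 (-1.02) past the minimum fold. None of these sign changes passed the test, and the causes of the lost and gained calls were not tested. Requiring 1 more A in the motif left the core in 4 of 6 members against 3.99% of all promoters, and reading the plus strand alone left it in 3 of 6 against 5.15%.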
